A study of Schizosaccharomyces pombe with 12 samples.

Results

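The genes described here are 8 *S. pombe* cell wall genes, chosen by name and systematic ID from the 6986 loci of the count table: the beta-glucan synthase genes *bgs1* (SPBC19G7.05c), *bgs2* (SPAC24C9.07c), *bgs3* (SPAC19B12.03) and *bgs4* (SPCC1840.02c), the alpha-glucan synthase gene *ags1* (SPCC1281.01), the glucanosyltransferase gene *gas1* (SPAC19B12.02c) and the wall protein genes *psu1* (SPAC1002.13c) and *ecm33* (SPAC1705.03c). All 8 had enough counts to be tested. Poly(A)+ RNA of 4 strains, a wild-type and the deletion mutants *ppn1*Δ, *swd22*Δ, *dis2*Δ, was sequenced from 3 biological replicates of every strain (12 libraries) to ask how loss of each subunit of the Dis2-Ppn1-Swd22 module of the cleavage and polyadenylation factor alters the transcriptome. All strains were h+ and were grown in YES medium at 30°C to log phase. In the mutants *ppn1* and *swd22* were each replaced by a HygMX cassette and *dis2* by a NatMX cassette, whereas the wild-type carried neither cassette. The labels give a genotype and a replicate number for each library, and the sources mention no second isolate of any genotype. The replicates were therefore taken as separate cultures of 1 strain per genotype.

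Fission yeast builds its wall chiefly from beta-glucan, alpha-glucan and galactomannan and has no chitin layer of the budding yeast kind. Synthases in the plasma membrane extrude the glucan chains, glucanosyltransferases such as Gas1 lengthen and join the chains outside the cell, and glycoproteins are laid into and over the glucan. At division the same enzymes build a septum, which glucan hydrolases later open to separate the daughters.

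The libraries held 17616688 to 23435936 counts, and the 8 genes together took 0.965% to 1.00% of the counts in wild-type and 0.746% to 0.873% in the mutants. The chi-square of counts between replicates of a strain was 5.38 to 23.6 per degree of freedom, above the sampling noise, and all 12 libraries were counted as separate samples. Values below are normalized counts, which are counts scaled with edgeR's TMM factors to a library of 20838181 counts, and each is relative to the total poly(A)+ RNA of whole cultures. A lower mRNA level in every cell and fewer cells holding the mRNA therefore cannot be told apart. As a check of the labels, *ppn1* was lower by a log2 fold change of -2.22 in *ppn1*Δ, *swd22* by -6.54 in *swd22*Δ and *dis2* by -3.92 in *dis2*Δ. These loci kept means of 107, 16.8 and 810 normalized counts in those mutants, in that order. The paper reports that the deleted coding sequences themselves had no reads. Where 3 values follow each other without strain names, they belong to *ppn1*Δ, then *swd22*Δ, then *dis2*Δ.

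The wall genes other than *bgs2* were mostly lower in the mutants, by modest amounts, and *bgs2* was higher. In *ppn1*Δ 6 of the 8 genes fell and 1 rose at an adjusted p at or below 0.05 (edgeR quasi-likelihood test, Benjamini-Hochberg over all 6110 loci tested), where 25.2% of all loci tested were lower and 24.5% higher by the same rule. In *swd22*Δ 7 fell and 1 rose, against 20.5% of all loci lower and 19.3% higher. In *dis2*Δ 6 fell and 0 rose, against 21.8% lower and 19.5% higher. None of the 8 reached the study's cutoff of a 2-fold change in any mutant with edgeR (0 of 8 each), a cutoff that 1.78%, 1.72% and 1.03% of all loci passed downward and 1.67%, 1.55% and 1.75% passed upward. At that same cutoff the count was also 0 with DESeq2. Over the 8 genes the median log2 fold change was -0.30, -0.36 and -0.37, where that of all loci tested was 0.01, -0.00 and 0.00. All 3 comparisons use the same 3 wild-type libraries, so the mutants are not independent of each other in these counts. The 8 genes were chosen with earlier results of these data known, so the shares of all loci beside them serve as description only.

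Every mutant library lay below every wild-type library for 6 of the 8 genes in *ppn1*Δ (29.0% of all loci tested did so), for 7 in *swd22*Δ (25.2%) and for 7 in *dis2*Δ (27.9%). For *bgs2* every mutant library lay above every wild-type library in all 3 mutants, as was so for 25.8%, 22.7% and 25.0% of loci. Leaving out wild-type replicate 1 lowered the number of genes that fell in *ppn1*Δ from 6 to 4, and leaving out any 1 library gave 4 to 6 genes there, 6 to 7 for *swd22*Δ and 5 to 6 for *dis2*Δ.

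**Figure D1:**
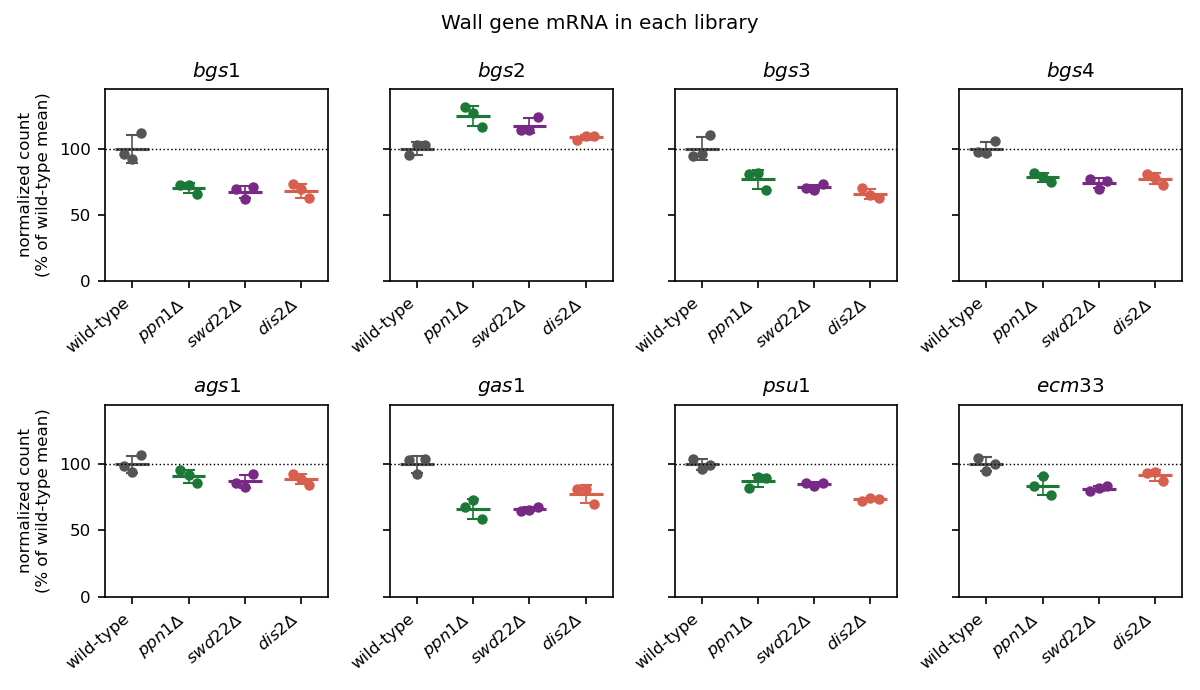
Normalized count of each of the 8 wall genes in each library as a percentage of its wild-type mean (vertical axis), with points for the 3 libraries of a strain, a bar for their mean and an error bar of 1 SD. The *bgs1* mutant libraries sit at 61.9% to 72.8% of the wild-type mean, while those of *bgs2* sit at 106% to 131%.

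Bgs1 is the synthase of the linear beta-glucan that forms the primary septum, and its gene fell in all 3 mutants. Wild-type libraries held 9143, 8782 and 10684 normalized counts of *bgs1*, *ppn1*Δ libraries 6876, 6888 and 6252, *swd22*Δ libraries 6623, 5902 and 6731, and *dis2*Δ libraries 6945, 6581 and 5942. The highest mutant library was below the lowest wild-type library, with wild-type replicate 3 standing highest of all. Mean *bgs1* was 9537 ± 1010.1 in wild-type and 6672 ± 364, 6419 ± 451 and 6489.5 ± 508 in the mutants (SD, n = 3 each). Its log2 fold change was -0.52 in *ppn1*Δ (SE 0.0804, adjusted p = 5.72e-05), -0.57 in *swd22*Δ (SE 0.0805, adjusted p = 2.88e-05) and -0.56 in *dis2*Δ (SE 0.0805, adjusted p = 4.03e-05) by edgeR's quasi-likelihood test.

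Bgs4 makes the bulk of the cell's beta-glucan and is needed for cell integrity during growth and division, and it had the most abundant synthase mRNA here. Wild-type libraries held 19797, 19535 and 21478 normalized counts of *bgs4*, *ppn1*Δ libraries 16515, 15926 and 15148, *swd22*Δ libraries 15559.7, 14064 and 15313, and *dis2*Δ libraries 16334, 15799.5 and 14692. Again no mutant library reached the wild-type range. *bgs4* was 21.7%, 26.1% and 23.0% lower than in wild-type. The log2 fold changes were -0.35 (SE 0.066), -0.44 (SE 0.0661) and -0.38 (SE 0.066), with adjusted p of 0.000324, 5.71e-05 and 0.000245 in edgeR.

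Bgs3 is an essential synthase found at growing tips and at the septum. Its mRNA was lowest in *dis2*Δ. Wild-type libraries held 9308, 9439.9 and 10853 normalized counts of *bgs3*, *ppn1*Δ libraries 7935, 8058 and 6777, *swd22*Δ libraries 6944, 6762 and 7187, and *dis2*Δ libraries 6918, 6386 and 6149. The wild-type range did not overlap that of any mutant, whereas the mutant ranges overlapped one another. The log2 fold change was -0.38 in *ppn1*Δ (SE 0.0761, adjusted p = 0.000617), -0.50 in *swd22*Δ (SE 0.0762, adjusted p = 5.85e-05) and -0.61 in *dis2*Δ (SE 0.0764, adjusted p = 9.95e-06) in edgeR, which is a fall of 23.1%, 29.4% and 34.3%.

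Bgs2 is the synthase of the ascospore wall, required for spore maturation after meiosis, and its gene was the only one of the 8 that was higher in the mutants. Wild-type libraries held 957, 1035 and 1039 normalized counts of *bgs2*, *ppn1*Δ libraries 1325, 1279.5 and 1177, *swd22*Δ libraries 1149, 1151 and 1249, and *dis2*Δ libraries 1076, 1109 and 1108. Raw counts were 941 to 1447 per library, so that *bgs2* mRNA was detected in every one of these vegetative cultures. No mutant library fell within the wild-type range. *bgs2* rose by 24.7% in *ppn1*Δ (log2 fold change 0.32, SE 0.0674, adjusted p = 0.00094 in edgeR) and by 17.1% in *swd22*Δ (0.23, SE 0.0677, adjusted p = 0.0131). In *dis2*Δ the mean was 8.61% above wild-type (0.12, 95% interval -0.02 to 0.26, adjusted p = 0.173), which did not pass. The *swd22*Δ call was lost without wild-type replicate 1 (adjusted p = 0.0644) or without *swd22*Δ replicate 3 (adjusted p = 0.0634), and its adjusted p in edgeR or DESeq2 ranged from 0.00718 to 0.0644 over all alternatives.

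A non-coding locus, SPNCRNA.880, lies on the opposite strand of *bgs2* and overlaps it over 1318 bases. It was also higher in all 3 mutants, by a log2 fold change of 0.22 in *ppn1*Δ (adjusted p = 0.0205), 0.25 in *swd22*Δ (adjusted p = 0.012) and 0.26 in *dis2*Δ (adjusted p = 0.0105) in edgeR. It held 1045 ± 40.5 normalized counts in wild-type and 1218 ± 56.7, 1246 ± 89.8 and 1249 ± 98.3 in the mutants (SD, n = 3 each). The library kit keeps the strand, but the sources do not give the strand setting of the counting. Loci lying wholly inside a well counted gene on the opposite strand had a mean of 10 or more counts in 33 of 51 cases (median 27.3 counts), against 1 of 8 such loci on the same strand (median 0). The part of reads from SPNCRNA.880 in the *bgs2* counts was not tested.

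Because Bgs2 belongs to spore formation, 12 meiosis and sporulation genes were read beside it. Of the 11 with enough counts, 3 fell in each mutant, while 5 rose in *ppn1*Δ and 3 in each of the others. Of all loci tested 25.2%, 20.5% and 21.8% were lower and 24.5%, 19.3% and 19.5% higher, so that most of these counts lay near the background share. The median log2 fold change of the 11 tested genes was 0.43, 0.32 and 0.13, the same direction as that of *bgs2*. The summed level of the 12 genes was 6725 to 8506 normalized counts in wild-type libraries. It was 2313 to 2438, 2485 to 2599 and 3024 to 3614 in those of the mutants, the opposite direction to *bgs2*. Most of that sum was *ste11*, the transcription factor that starts sexual differentiation, and *mei2*, the RNA-binding protein that starts meiosis. *ste11* fell, with log2 fold changes of -2.59, -2.32 and -1.76, and so did *mei2*, with -2.36, -2.08 and -1.21. The late gene *meu14*, which acts in forespore membrane formation, rose by 1.93, 1.64 and 1.09, and *mei4*, the meiotic forkhead factor, by 0.59, 0.65 and 0.72. At the 2-fold cutoff with its mean count of 100, 2 of the 11 fell in each mutant and 0, 0 and 1 rose. Of all loci tested 1.78%, 1.72% and 1.03% passed it downward and 1.67%, 1.55% and 1.75% upward. *meu14* thus did not pass that cutoff in *ppn1*Δ or *swd22*Δ, and which gene passed it upward in *dis2*Δ is not given here. In each strain 7 or 8 of the 12 genes had means under 100 normalized counts, and *spo4*, a kinase needed for the second meiotic division, was near 0 with a mean of 1.01 to 2.36. The part of meiotic cells in the *bgs2* result was not tested.

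Ags1 is the essential synthase of cell wall alpha-glucan. Its gene changed least among the vegetative synthase genes. Wild-type libraries held 10592, 10159.6 and 11519 normalized counts of *ags1*, *ppn1*Δ libraries 10265, 9848 and 9232, *swd22*Δ libraries 9243, 8945 and 9972, and *dis2*Δ libraries 9975, 9579 and 9098. The *ppn1*Δ range overlapped that of wild-type, whereas the *swd22*Δ and *dis2*Δ ranges lay just below it. *ags1* fell by 12.7% in *swd22*Δ (log2 fold change -0.20, SE 0.0668, adjusted p = 0.0266 in edgeR) and by 11.2% in *dis2*Δ (-0.17, SE 0.0668, adjusted p = 0.0486). In *ppn1*Δ the log2 fold change was -0.14 (95% interval -0.28 to 0.00, adjusted p = 0.099). Both calls depended on single libraries. The *swd22*Δ call was lost without wild-type replicate 1 or 3 or *swd22*Δ replicate 1 or 2 (adjusted p 0.0609, 0.134, 0.0768 and 0.0883 in edgeR, range over alternatives 0.00522 to 0.134). The *dis2*Δ call was lost under 13 of the alternatives, among them DESeq2 (adjusted p = 0.0554, range 0.00668 to 0.218) and edgeR with the replicate number as a block (adjusted p = 0.0596). Also among the 13 were the fits without wild-type replicate 1 or 3, *ppn1*Δ replicate 1 or 2, *swd22*Δ replicate 1 or *dis2*Δ replicate 2 or 3.

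Gas1 is the main vegetative glucanosyltransferase, which elongates beta-glucan chains in the wall. Wild-type libraries held 61553, 55122 and 61956 normalized counts of *gas1*, *ppn1*Δ libraries 40198, 43628 and 34763, *swd22*Δ libraries 38422, 38979.5 and 40247, and *dis2*Δ libraries 48516, 48332 and 41610.3. The mutants were all below wild-type, and *dis2*Δ had the smallest gap. *gas1* fell by 33.6% in *ppn1*Δ (log2 fold change -0.59, SE 0.0851, adjusted p = 2.56e-05 in edgeR), 34.1% in *swd22*Δ (-0.60, SE 0.0851, adjusted p = 2.93e-05) and 22.5% in *dis2*Δ (-0.37, SE 0.0849, adjusted p = 0.00238).

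Psu1 is an essential wall protein of the SUN family. Wild-type libraries held 30210.4, 27933 and 28713 normalized counts of *psu1*, *ppn1*Δ libraries 23826, 26210.3 and 25900.2, *swd22*Δ libraries 24893, 24185 and 24803, and *dis2*Δ libraries 20963, 21515 and 21282. The *dis2*Δ libraries were below all others. *psu1* fell by 26.6% in *dis2*Δ (log2 fold change -0.45, SE 0.0599, adjusted p = 1.87e-05 in edgeR), 14.9% in *swd22*Δ (-0.23, SE 0.0598, adjusted p = 0.00502) and 12.6% in *ppn1*Δ (-0.19, SE 0.0598, adjusted p = 0.0127). The *ppn1*Δ call was lost with scaling by library size alone (-0.11, adjusted p = 0.083) and without wild-type replicate 1 or *ppn1*Δ replicate 1 (adjusted p 0.0911 and 0.0662; range over alternatives 0.00241 to 0.0911 in edgeR or DESeq2).

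Ecm33 is an abundant glycoprotein of the cell surface. Wild-type libraries held 71846, 64697 and 68685 normalized counts of *ecm33*, *ppn1*Δ libraries 57189, 62358 and 52317, *swd22*Δ libraries 54549, 56035 and 56941, and *dis2*Δ libraries 63736, 64599 and 59523. The highest *dis2*Δ library came close to the lowest wild-type library, and the other mutants lay further below. *ecm33* fell by 16.3% in *ppn1*Δ (log2 fold change -0.26, SE 0.0729, adjusted p = 0.00793 in edgeR) and 18.4% in *swd22*Δ (-0.29, SE 0.0729, adjusted p = 0.00408). In *dis2*Δ the log2 fold change was -0.13 (95% interval -0.28 to 0.03, adjusted p = 0.174). The *ppn1*Δ call was lost without wild-type replicate 1 (adjusted p = 0.0548, range over alternatives 0.00147 to 0.0548 in edgeR or DESeq2).

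**Figure D2:**
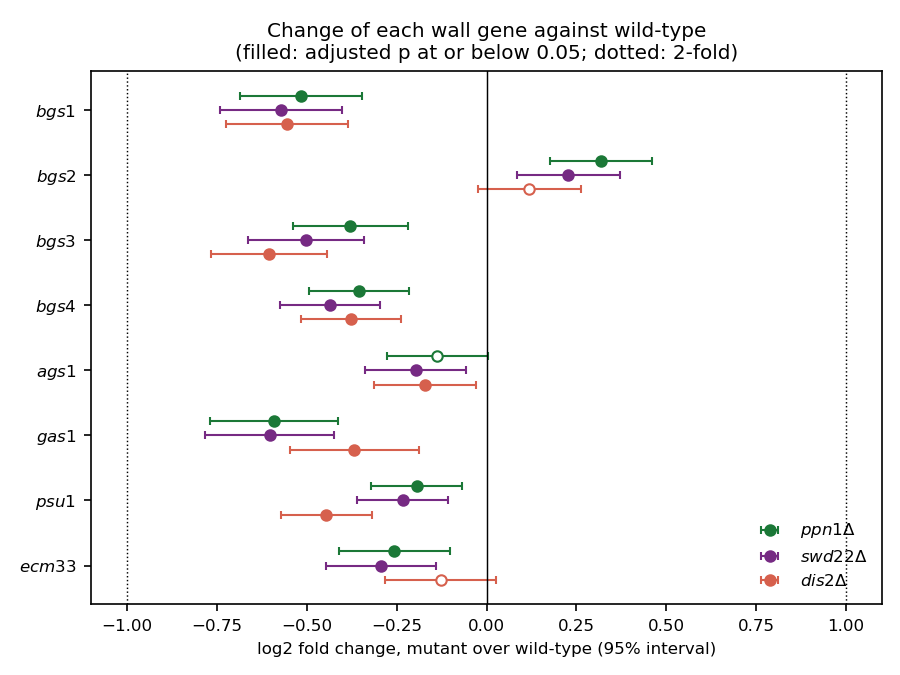
Log2 fold change of each wall gene in each mutant over wild-type (horizontal axis) with its 95% interval from the edgeR fit, filled where the adjusted p was at or below 0.05, with dotted lines at a 2-fold change. All intervals lie inside the dotted lines, and *bgs2* is the only gene to the right of 0.

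The mutants were then compared with each other, in 3 pairs. Between *swd22*Δ and *ppn1*Δ 0 of the 8 genes differed by the same rule, and 0 did in DESeq2 or in edgeR at an unadjusted p under 0.05. In that pair 1.05% of all loci tested were lower in *swd22*Δ and 5.27% higher. The largest difference was that of *bgs3*, -0.12 (95% interval -0.28 to 0.04), and that of *gas1* was -0.01 (-0.19 to 0.17).

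Against *ppn1*Δ, 3 of the 8 genes were lower in *dis2*Δ and 0 higher, where 12.6% of all loci tested were lower and 16.1% higher. They were *psu1* (log2 difference -0.25, adjusted p = 0.00438 in edgeR), *bgs3* (-0.23, adjusted p = 0.0332) and *bgs2* (-0.20, adjusted p = 0.0334). The *bgs3* and *bgs2* calls were each lost when single *ppn1*Δ or *dis2*Δ libraries were left out, down to 1 of the 8 genes without *ppn1*Δ replicate 1 or 2 or *dis2*Δ replicate 2 or 3. That of *bgs3* was also lost with relative log expression factors (adjusted p = 0.0513 in edgeR). Against *swd22*Δ, *psu1* alone was lower in *dis2*Δ (-0.21, adjusted p = 0.0203), where 8.87% of loci were lower and 9.71% higher, and the call was lost without *swd22*Δ replicate 1 or any 1 of the *dis2*Δ libraries (adjusted p up to 0.095).

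*gas1* and *ecm33* leaned the other way. *gas1* was higher in *dis2*Δ by 0.22 than in *ppn1*Δ (95% interval 0.04 to 0.40, adjusted p = 0.0569 in edgeR) and by 0.23 than in *swd22*Δ (0.06 to 0.41, adjusted p = 0.0633), neither of which passed. With DESeq2 both passed (adjusted p 0.0349 and 0.0405), and without *dis2*Δ replicate 3 both passed in edgeR (0.0252 and 0.036). The first alone also passed without wild-type replicate 2 or *ppn1*Δ replicate 2 and the second alone without *ppn1*Δ replicate 3, the ranges over alternatives being 0.0237 to 0.241 and 0.027 to 0.226. *ecm33* was higher in *dis2*Δ by 0.13 and 0.17, with adjusted p of 0.199 and 0.129.

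To compare the genes with each other, counts were divided by the exonic length of the ASM294v3 gene model and by the scaled library, giving RPKM, the usual measure of reads per length and depth. In wild-type *ecm33* stood at 1661 ± 87.0 RPKM, *gas1* at 1322 ± 85.1 and *psu1* at 684 ± 27.4 (SD, n = 3 each). These 3 genes of wall assembly and wall proteins ranked 141, 161 and 251 among coding loci. The synthase genes were far lower, with *bgs4* at 125 ± 6.49 RPKM, *bgs1* at 71.0 ± 7.52, *bgs3* at 68.0 ± 5.90, *ags1* at 59.6 ± 3.85 and *bgs2* at 7.99 ± 0.365. Neighbors in this order were separated in wild-type except *bgs1* and *bgs3*, whose library ranges overlapped.

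In all 3 mutants *ags1* stood above *bgs1* and *bgs3*, which it was below in wild-type. In *ppn1*Δ the levels were 54.2 RPKM for *ags1*, 52.3 for *bgs3* and 49.7 for *bgs1*, in *swd22*Δ 52.0, 48.0 and 47.8, and in *dis2*Δ 52.9, 44.7 and 48.3. Neighbors among these 3 genes overlapped in each mutant. With coding length in place of exonic length *ags1* stayed above both in 2 of the mutants but was below *bgs3* in *ppn1*Δ (64.9 against 66.5 RPKM).

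**Figure D3:**
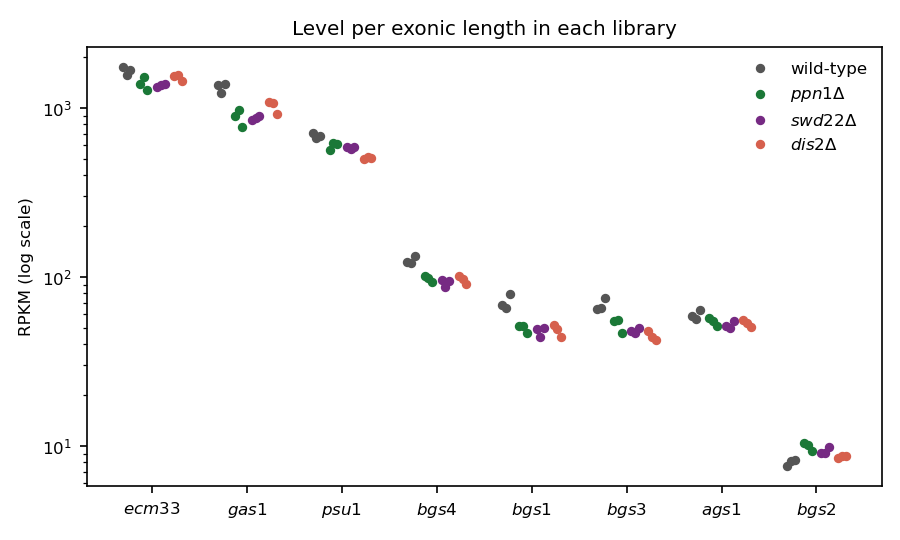
RPKM of the 8 wall genes in each library on a log axis, ordered by the wild-type mean, with 1 point per library and colors for strains. The surface genes *ecm33*, *gas1* and *psu1* sit at 496 RPKM or more in every library and *bgs2* sits below 10.5.

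Sums and ratios of these same RPKM values differed accordingly between wild-type and mutant libraries. The summed RPKM of *bgs1* to *bgs4* was 272 ± 20.0 in wild-type and 209.7 ± 12.04, 197 ± 9.68 and 198 ± 11.4 in the mutants (SD, n = 3 each). The ratio of *ags1* to this sum was 0.216 to 0.224 in wild-type libraries and 0.254 to 0.261, 0.253 to 0.271 and 0.265 to 0.271 in those of the mutants, with no mutant library in the wild-type range. The share of *bgs2* in the sum was 2.95% in wild-type and 4.75%, 4.74% and 4.40% in the mutants. A share also rises when the other genes of the sum fall, and *bgs2* itself did not pass in *dis2*Δ (adjusted p = 0.173 in edgeR). The ratio of *bgs1* to *bgs4* fell outside the wild-type range as well, from 0.568 in wild-type to 0.509, 0.518 and 0.503. For each of these 4 quantities and each mutant the two-sided exact permutation test gave p = 0.1, the smallest value that 3 against 3 libraries allow.

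**Figure D4:**
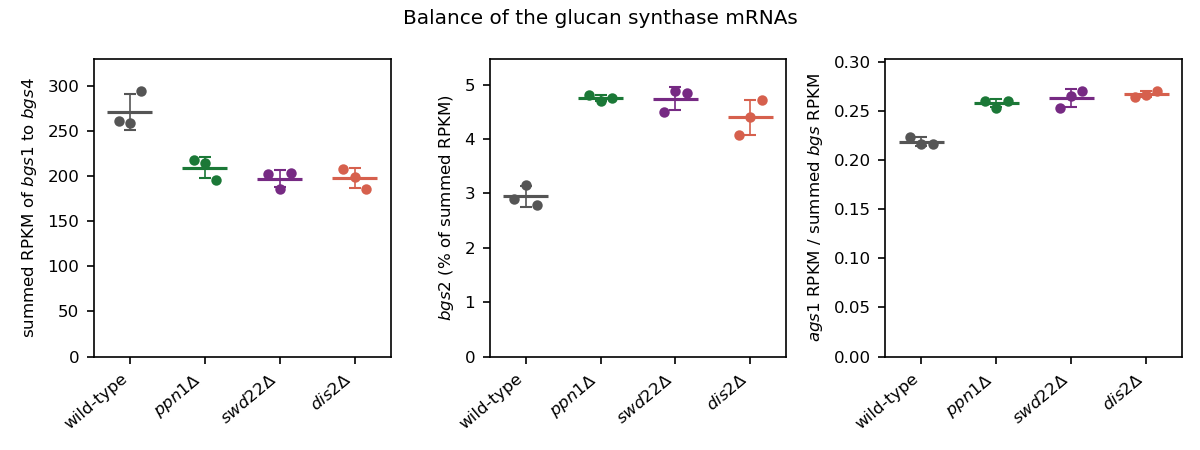
Summed RPKM of the 4 beta-glucan synthase genes, share of *bgs2* in that sum in percent, and ratio of *ags1* to that sum, each with 1 point per library, a bar for the mean and an error bar of 1 SD over 3 libraries. The mutant libraries lie below wild-type in the first panel (186 to 218 against 259 to 295 RPKM) and above it in the others.

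The synthase transcripts are long, with 6069 to 8667 bases, and length moved with these results. Among 62 coding loci of 6000 bases or more, which include all 5 synthase genes, the median log2 fold change was -0.09, -0.10 and -0.16, and 38.7%, 33.9% and 46.8% of them fell while 12.9%, 14.5% and 1.61% rose. Of all 4973 coding loci tested, 26.5%, 20.3% and 22.3% fell and 22.96%, 17.96% and 18.2% rose. The median level of these loci was 98.7% to 102% of the wild-type mean in wild-type libraries, highest in replicate 3, and 92.2% to 96.1%, 91.7% to 95.4% and 88.6% to 89.5% in those of the mutants. The lower quartile of the log2 fold change over these loci was -0.268, -0.205 and -0.326. The falls of *bgs1*, *bgs3* and *bgs4*, -0.35 to -0.61, lay beyond the median and this quartile in each mutant. That of *ags1*, -0.14 to -0.20, lay between the median and the lower quartile in each, and *bgs2*, also over 6000 bases, rose. The 1657 coding loci of 1500 to under 2500 bases, the class of *gas1*, *psu1* and *ecm33*, had medians of -0.03, -0.01 and -0.03. The part of transcript length in the result was not tested.

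Across the 12 libraries the wall genes other than *bgs2* moved together. As a description, Pearson's r of log2 normalized counts over 12 libraries, which share strains, lay between 0.35 and 0.99 for the 21 pairs without *bgs2* (median 0.79). With the strain means removed it lay between -0.27 and 0.96 (median 0.63). The closest pairs were *bgs1* with *bgs4* (0.989, within strains 0.959) and *gas1* with *ecm33* (0.965, within strains 0.949). The lowest within-strain values of these pairs were those of *psu1* with the synthase genes. They were -0.27 with *bgs3*, -0.18 with *ags1*, -0.17 with *bgs4* and -0.03 with *bgs1*, so within strains *psu1* did not move with them. *bgs2* gave r of -0.76 to -0.32 with the other 7 genes, and -0.52 to 0.61 with the strain means removed.

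Among 4734 coding loci with a mean of at least 100 normalized counts, the loci most like each gene over the 12 libraries were taken as a description. For *bgs1* they were *ghs2*, annotated as a glucosidase gene (r = 0.988), and *pmp31*, a plasma membrane proteolipid gene (0.984). *pmp31* (0.976) and *gwt1* (0.976), whose product acts in GPI anchor synthesis, were most like *bgs4*, and for *bgs3* they were *pqr1*, a ubiquitin ligase gene (0.982), and *ppr5* (0.976). *dfg502*, annotated as a mannan endo-mannosidase gene (0.980), and *hem3* of heme synthesis (0.970) were most like *gas1*. The mitochondrial *cox5* (0.953) and the mannosyltransferase gene *anp1* (0.951) were most like *ags1*, SPBC1652.02 (0.972) and *puf1* (0.961) most like *psu1*, and *slp1* (0.953) and *dut1* (0.952) most like *ecm33*. For *bgs2* they were the vacuolar transporter gene *hmt1* (0.932) and SPAPB1E7.08c (0.931), a transporter gene.

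The genes are given here with their positions in ASM294v3, a later build than that used for counting. Each has a single exon, and every 51-base word of each transcript occurred once in that genome, so that reads of a paralog could not be mistaken for theirs at full length. *bgs1* lies on chromosome II from 2350922 to 2357364 (minus strand), *bgs2* on I from 3053214 to 3059282 (minus), *bgs3* on I from 4882954 to 4889915 (plus), *bgs4* on III from 2248859 to 2256652 (minus) and *ags1* on III from 1373097 to 1381763 (plus). *gas1* lies on I from 4878579 to 4880740 (minus), *psu1* on I from 1821401 to 1823430 (minus) and *ecm33* on I from 1569613 to 1571589 (minus).

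*gas1* and *bgs3* are divergent neighbors, 2213 bases apart, with 1 listed locus between them (SPNCRNA.255, at most 4.32 mean normalized counts in any strain). Both fell in all 3 mutants. *bgs1* and *mbx1*, which encodes a MADS-box transcription factor, are likewise divergent, 1134 bases apart, and *mbx1* fell in all 3 (log2 fold change -0.28, -0.33 and -0.42, adjusted p 0.00426, 0.00206 and 0.00027 in edgeR). Other neighbors moved in both directions. Of the 15 nearest loci on either side of the 8 genes, 13 could be tested, of which 4, 3 and 3 fell and 3, 1 and 5 rose, against the 25.2%, 20.5% and 21.8% of all loci lower and 24.5%, 19.3% and 19.5% higher. The aconitase gene *aco1* downstream of *bgs2*, for example, fell in all 3 (-0.49, -0.22 and -0.21) where *bgs2* did not, and *mog1* downstream of *bgs4* was at -0.05, 0.29 and 0.19 and passed the test in *swd22*Δ and *dis2*Δ, where *bgs4* fell. The ribosomal protein gene *rps3001*, 404 bases downstream of *bgs3* on the same strand, rose in *ppn1*Δ and *dis2*Δ (0.28 and 0.16, adjusted p 0.00117 and 0.039) and was at 0.04 in *swd22*Δ (adjusted p = 0.67). Its paralog *rps3002* downstream of *bgs1* was at 0.04, -0.07 and 0.08 (adjusted p 0.668, 0.389 and 0.317). SPNCRNA.1034, which overlaps the 3′ end of *bgs3* over 118 bases on the opposite strand, fell in all 3 as well (-0.57, -0.86 and -0.90).

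Beyond the 8 genes, 50 other genes of the cell wall were read from a list of 51, of which *sup11* did not match the table. Of these 50, 22, 18 and 18 fell and 4, 3 and 5 rose. These are 44%, 36% and 36% lower, beside the 25.2%, 20.5% and 21.8% of all loci given above. The list too was chosen with earlier results of these data known, so these shares are a description. The median log2 fold change of the list was -0.10, -0.11 and -0.15, nearer to 0 than that of the 8 genes. With edgeR 0 of the 50 passed the 2-fold cutoff in each mutant, also with DESeq2, although leaving out *ppn1*Δ replicate 2 gave 1 in *ppn1*Δ and leaving out wild-type replicate 1 or 2 gave 1 in *swd22*Δ.

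By group, for which the same background of 25.2%, 20.5% and 21.8% of loci lower and 24.5%, 19.3% and 19.5% higher applies, all 3 galactomannan genes fell in every mutant. *omh1*, which encodes a Golgi mannosyltransferase, had the largest fall of the list in *ppn1*Δ and *swd22*Δ, with wild-type libraries at 9295, 9515.5 and 12051 normalized counts and mutant libraries at 4918 to 6379. Its log2 fold change was -0.92, -0.95 and -0.87 (adjusted p 2.09e-06, 2.21e-06 and 5.76e-06 in edgeR). The galactosyltransferase gene *gma12* (-0.16, -0.17 and -0.24) and the mannosyltransferase gene *och1* (-0.38, -0.25 and -0.33) fell less. Of the 3 paralogs of *gas1*, which moved apart, *gas2* fell in *ppn1*Δ and *dis2*Δ (-0.35 and -0.35, and -0.18 without passing in *swd22*Δ). *gas4*, a gene of spore formation, fell in *dis2*Δ alone by the test (0.06, 0.09 and -0.23), and *gas5* rose there (-0.13, -0.11 and 0.37, adjusted p 0.207, 0.296 and 0.00147 in edgeR). Of 8 glucan hydrolase genes 6, 5 and 3 passed the test downward, and 0 upward. The exo-glucanase gene *exg1* fell in *ppn1*Δ and *swd22*Δ (-0.40 and -0.59, adjusted p 5.72e-05 and 1.47e-06) and stood at 0.01 in *dis2*Δ (adjusted p = 0.928), and *dis2*Δ differed from both (0.41 and 0.59, adjusted p 0.000105 and 3.1e-06).

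The 4 paralogs of *ags1*, of which some act in spore wall formation, did not follow it. *mok11* rose in *ppn1*Δ and *swd22*Δ (0.32 and 0.38), *mok14* rose in all 3 mutants (0.32, 0.37 and 0.19), and 0 of the 4 fell. *sbg1* encodes a partner of Bgs1 and fell (-0.40, -0.45 and -0.44), while the other partner gene, *smi1*, was at -0.10, 0.04 and -0.07 and did not pass.

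Of the other genes of the list, *cwg2*, which encodes a prenyltransferase subunit, fell in *ppn1*Δ and *swd22*Δ (-0.88 and -0.54, adjusted p 3.19e-06 and 0.000523 in edgeR) and was at -0.21 in *dis2*Δ (adjusted p = 0.115). The wall stress sensor gene *wsc1* fell in all 3, most in *dis2*Δ (-0.38, -0.43 and -0.67, adjusted p 0.00061, 0.000256 and 3.59e-06). The MAP kinase gene *pmk1* rose by 0.21, 0.20 and 0.16.

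*psu2*, the paralog of *psu1*, had the largest change of the list in *dis2*Δ, rising from 33.4 ± 8.34 to 67.5 ± 7.86 normalized counts (SD, n = 3 each; log2 fold change 1.01, adjusted p = 0.00267 in edgeR), while *psu1* itself fell. It did not pass the 2-fold rule because its mean was under 100 counts in both strains.

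**Figure D5:**
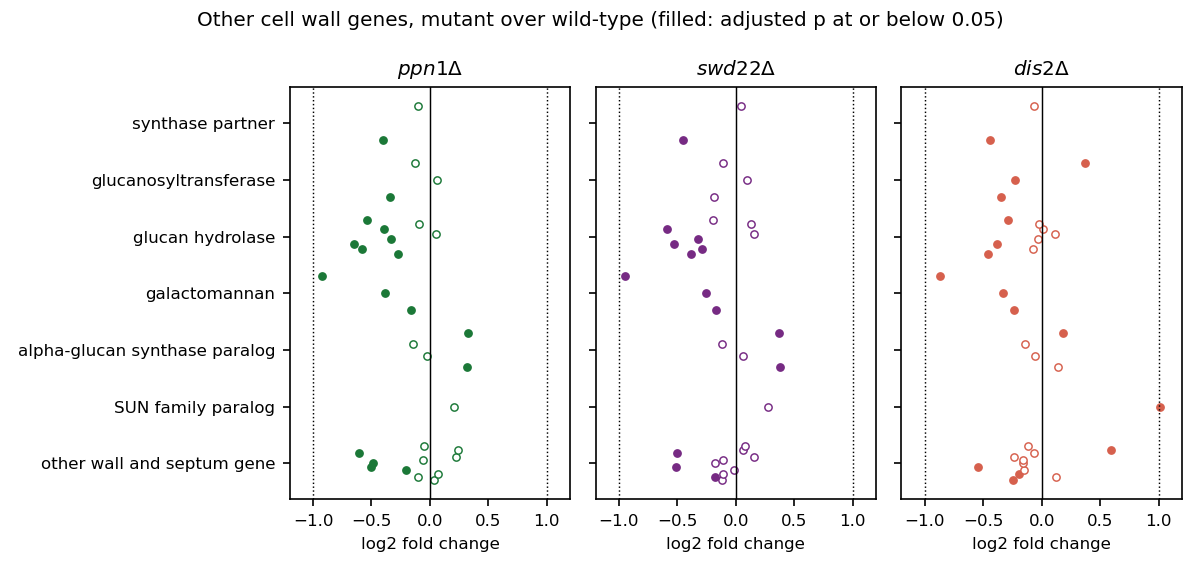
Log2 fold change of the other cell wall genes, in the groups shown, in each mutant over wild-type (horizontal axis), by gene group (vertical axis), with 1 point per gene, filled where the adjusted p was at or below 0.05, and dotted lines at a 2-fold change. The galactomannan and hydrolase points lie mostly left of 0, and in *dis2*Δ *psu2* is the only point at the right dotted line.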

How the data were processed

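Poly(A)+ RNA of 4 strains with 3 replicates each was sequenced from a TruSeq stranded library. Paired 51-base reads were aligned by the authors (HISAT2 2.1.0) and counted on PomBase exons of ASM294v2 with HTSeq 0.10.0, and the deposited values are raw counts per locus, not normalized (0 columns were left out). The table has 6987 entries for 6986 IDs, the 2 entries of 1 ID being summed, and 331 loci had 0 counts everywhere. Depth per library was 17616688 to 23435936 counts. Names, lengths and positions came from ASM294v3 (6814 IDs matched, 172 did not), and no coordinates were converted.

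The strains were compared in edgeR 4.0.16 under R 4.3.3 (filterByExpr, TMM, quasi-likelihood fit of all 12 libraries, 6110 loci tested), with an adjusted p cutoff of 0.05 and, for the study's rule, a 2-fold change and a mean count of 100. The study used DESeq2, run here (1.42.0) as an alternative. The members and gene lists were chosen with earlier results of these data known. Genes named were the 8 members, the 3 largest changes of the wall list per mutant, the deleted genes, neighbors and overlapping loci, and the 2 loci most like each member. Others (the meiotic genes, *gma12*, *och1*, *gas2*, *gas4*, *gas5*, *mok11*, *mok14*, *sbg1*, *smi1* and *pmk1*) were chosen after their values were seen. Some genes and 1 group of the wall list, though in its counts, are not reported here by name or drawn. Same-numbered *swd22*Δ and wild-type libraries deviated together (r = 0.147, 0.433 and 0.339 across 5175 loci), so the replicate number was taken to pair these strains and was tried as a block; in the other comparisons not every pair was over 0.1. The fit was first tested on simulated data, where false calls in edgeR came near the limit set for that test. Alternatives were DESeq2, other scalings and filters, only the strains compared, the replicate block, a cutoff of 0.01 and each library left out; the block with only *swd22*Δ and wild-type in the fit was added after seeing the data. Figures were made with Python 3.11.15 and matplotlib 3.10.9.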

Additional observations from a re-analysis of the deposited data

How the results depend on the processing

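No log2 fold change of a member changed direction under any alternative where it was called. Of the comparisons of single members, 916 kept their side of the threshold, 43 lost a call and 9 gained one. Against wild-type, the members that fell numbered 5 to 6 for *ppn1*Δ, 6 to 7 for *swd22*Δ and 5 to 6 for *dis2*Δ over the alternatives that kept all libraries. With the replicate block 7 members fell and 1 rose in *swd22*Δ, as without it, and the block fit of those strains alone gave the same counts; the block changed no other member call than that of *ags1* in *dis2*Δ. At an adjusted p of 0.01, 0 members rose in *swd22*Δ, *dis2*Δ had 0 members below *swd22*Δ and 1 below *ppn1*Δ, and 3 listed wall genes rose in *dis2*Δ. With DESeq2 1 member (*gas1*) was higher in *dis2*Δ than in *ppn1*Δ and 1 than in *swd22*Δ, and the latter also held with scaling by library size alone and with only the strains compared (1 each). Of the wall list, 3 genes rose in *dis2*Δ with relative log expression factors in place of 5, and 7 rose in *ppn1*Δ with library size alone in place of 4, a scaling that moved the median of all loci there to 0.09. The cause was not tested. Leaving out single libraries gave 0 to 1 members higher in *swd22*Δ than in wild-type, 0 to 1 higher in *dis2*Δ than in *ppn1*Δ, 0 to 1 higher in *dis2*Δ than in *swd22*Δ, 1 to 3 lower in *dis2*Δ than in *ppn1*Δ and 0 to 1 lower in *dis2*Δ than in *swd22*Δ. For the wall list it gave 3 to 5 genes higher in *dis2*Δ and 0 to 1 past 2-fold in both *ppn1*Δ and *swd22*Δ.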
